A study of Mus musculus with 6 samples.

Results

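The 9 genes described here encode complement components and receptors: *C1qa*, *C1qb*, *C1qc*, *C3*, *Cfb*, *Cfp*, *C3ar1*, *C5ar1* and *Serping1*. They were taken by symbol from the 24062 genes of the deposited count tables, and all 9 had a row. RNA was sequenced from RAW264.7 cells, a macrophage cell line from mouse, in 6 conditions with 1 library each. M0 cells were unpolarized, M1 cells were treated for 24 h with LPS at 100 ng/mL together with IFN-γ at 20 ng/mL, and M2 cells for 24 h with IL-4 at 20 ng/mL. RM0, RM1 and RM2 cells were in the same 3 states, received 10 Gy of γ-radiation and were cultured for another 24 h. Whether the non-irradiated cells were kept for the same additional time is not stated. Each library was made from RNA pooled from 5 wells of this single line, so that no difference between a pair of libraries has a replicate check, and bone marrow appears as the tissue in the labels, whose protocols name the cell line.

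Complement is a cascade of plasma proteins that marks particles for uptake and calls in leukocytes. In the classical pathway C1q, built from the products of *C1qa*, *C1qb* and *C1qc*, binds antibody or altered surfaces and starts the protease chain, which the C1 inhibitor encoded by *Serping1* holds back. In the alternative pathway factor B (*Cfb*) joins C3b, the cleaved form of C3, to form the C3 convertase, and properdin (*Cfp*) stabilizes it. The small fragments C3a and C5a released by the cascade act on the G protein-coupled receptors C3aR (*C3ar1*) and C5aR1 (*C5ar1*). The liver makes most plasma complement, and macrophages are known as a local source and as cells that carry both receptors.

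Of the 9 genes, 5 were measured and 4 were at or near 0. *Cfb* was far higher in both M1 libraries, where *C3ar1* and *C5ar1* were lower, and these 3 genes passed the test of M1 polarization, as did 47.6% of all genes tested. *Cfp* and *C3* stayed within a narrow range in all 6 libraries. Irradiation moved no member past the test threshold, and *Cfb* was higher in RM0 than in M0 but lower in RM1 than in M1.

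Promoter sequence is shown for *C3ar1* and *C5ar1*, the receptor pair whose levels were lowest in the M1 libraries, and for *C3*, which is the shared substrate of the pathways and varied little. The sequences are those of RefSeq in build GRCm38.p6, written 5′ to 3′ on the minus strand, on which all 3 genes lie, and annotated exon bases were left out. They span chr6:122856162-122856407 for *C3ar1*, chr7:16259339-16259512 for *C5ar1* and chr17:57228137-57228386 for *C3*. Capitals mark a match to 1 of 4 motifs searched on both strands, which were AP-1 (TGANTCA), GAS (TTCNNNGAA), C/EBP (TTGCNNAA) and PU.1 (GAGGAA).
C3ar1: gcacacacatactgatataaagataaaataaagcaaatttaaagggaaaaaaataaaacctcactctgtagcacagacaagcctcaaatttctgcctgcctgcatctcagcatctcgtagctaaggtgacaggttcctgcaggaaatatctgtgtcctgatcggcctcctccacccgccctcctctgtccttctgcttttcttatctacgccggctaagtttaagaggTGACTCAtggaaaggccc
C5ar1: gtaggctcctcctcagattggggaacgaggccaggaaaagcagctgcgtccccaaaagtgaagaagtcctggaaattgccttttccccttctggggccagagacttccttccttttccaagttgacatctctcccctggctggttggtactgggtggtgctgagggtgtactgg
C3: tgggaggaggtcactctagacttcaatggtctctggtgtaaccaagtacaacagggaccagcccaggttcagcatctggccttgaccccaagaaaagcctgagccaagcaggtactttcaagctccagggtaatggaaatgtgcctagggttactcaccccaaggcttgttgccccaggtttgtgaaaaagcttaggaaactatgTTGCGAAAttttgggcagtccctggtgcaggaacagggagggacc
The *C3ar1* window held an AP-1 match whose first base lay 22 bases before the start site, a motif found in 6.65% of 32851 promoter windows of the same length. The *C3* window held a C/EBP match beginning 45 bases before the start site, as did 9.56% of windows of its length. None of the 4 motifs was matched in the *C5ar1* window of 174 bases, which adjoins the RefSeq start used and is shorter because it stops at an exon of another transcript. This window lies inside the listed span of *C5ar1*, whose 5′ end is at 16259540, and the bases upstream of that end were not searched. A match describes letters only. Of the 9 genes 6 had a promoter in the RefSeq table, and those without an entry were *C1qa*, *Cfb* and *Serping1*. The windows of *C1qb*, *C1qc* and *Cfp*, not shown, were searched as well. A PU.1 match began 30 bases before the start site in *C1qb*, as did 23.3% of windows of that length hold one. In *C1qc* a PU.1 match began 193 bases before it, with 9.74% of windows of that length holding one. The *Cfp* window held no match.

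Between 17894937 and 18870516 reads were counted per library. The TMM factors, which scale libraries on the assumption that most genes do not differ, ran from 0.8004 in M1 to 1.134 in M2. Levels are given in CPM, a gene's counts per 1000000 reads of the library after this scaling, and scaling by library totals instead moved the median log2 fold change of all genes to -0.46 in M1 against M0, -0.25 in RM1 against RM0 and 0.13 in RM1 against M1. All 8 macrophage markers examined had at least 10 counts in every library, with a summed level of 17470 CPM in M1 to 33140 CPM in RM0. All 5 hepatocyte markers and all 4 T cell markers had 3 counts or fewer in each library, and so had 2 of 3 B cell markers. The summed level of 6 M1 markers was highest in M1, at 12410 CPM, and lowest in M2, at 994 CPM. Most of that sum was *Nos2*, with 11490 CPM in M1 and 529.9 in M2. *Cd86*, *Cxcl10* and *Tnf* were also highest in M1, *Tnf* only slightly, at 578 CPM beside 518 in RM0. *Il1b* and *Il6* were highest in RM1, at 397 and 43.4 CPM, beside 191 and 30.4 in M1. Among 5 M2 markers *Retnla* and *Chil3* had 0 counts throughout, and the sum did not exceed 5.29 CPM in any library. *Arg1* had 31 counts in M2 and 89 in RM2, and 5 or fewer in the other libraries. *Mrc1* was instead highest in M1, at 50 counts, and RM1, at 26, with 6 in M2 and 12 in RM2. *Ccl24* had 4 counts or fewer in every library. In bulk RNA, fewer cells expressing a gene and less of its RNA per cell cannot be told apart.

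**Figure D1:**
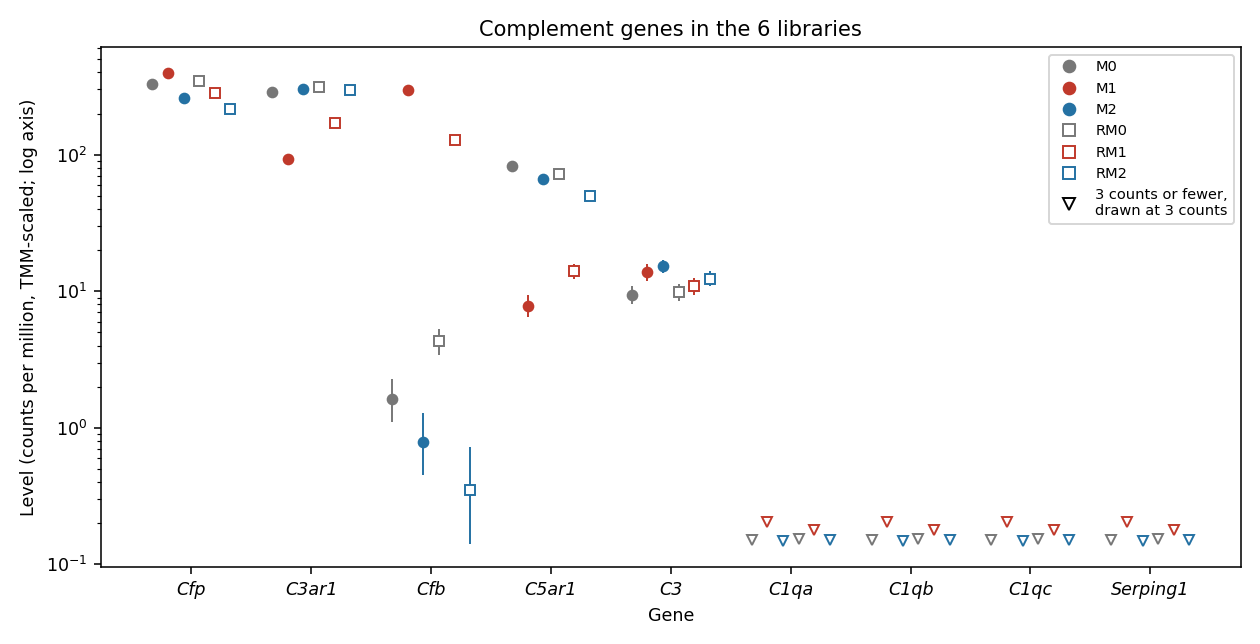
Level of each of the 9 complement genes in the 6 libraries, in TMM-scaled CPM on a log axis. Circles are non-irradiated and squares irradiated libraries, bars are 95% Poisson intervals of the count, and triangles mark genes with 3 counts or fewer at the level of 3 counts. *Cfb* spans the widest range, from 0.353 CPM in RM2 to 295 CPM in M1.

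The C1q chains, the recognition part of the classical pathway, were at or near 0 at this depth. *C1qb* (NM_009777) and *C1qc* (NM_007574) had 0 counts in all 6 libraries, and *C1qa* (NM_007572) had 1 count, in M2. The 3 genes lie side by side on chromosome 4 of GRCm38, at 136880145 to 136898844 from the start of *C1qb* to the end of *C1qa*. *Serping1* (NM_009776, chromosome 2, 84765360 to 84775429) likewise had 0 counts in all 6 libraries. A count of 0 allows up to 3 counts, which corresponds to 0.148 CPM in M2 at the lowest and 0.203 CPM in M1 at the highest. The listed coordinates cover 99.3% to 100% of these 4 genes, and no fold change was computed for them.

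The 3 alternative pathway genes among the 9, *C3*, *Cfb* and *Cfp*, were measured, while *Cfd*, which encodes factor D, the protease that cleaves factor B, and is not among them, had 0 counts in every library. *C3* (NM_009778, chromosome 17, 57217266 to 57228136), which encodes the protein on which all activation pathways converge, had 203 counts in M1, 181 in RM1, 187 in M0, 192 in RM0, 309 in M2 and 245 in RM2. After scaling this was 13.7 CPM in M1, 10.9 in RM1, 9.43 in M0, 9.80 in RM0, 15.2 in M2 and 12.35 in RM2. M2 was thus the highest and M0 the lowest, but none of the 5 steps between neighbours in the order of levels exceeded counting error, and the whole span was 0.69 on the log2 scale. The listed coordinates of *C3* cover only 45.0% of the annotated gene, so that where in the gene its reads were counted is uncertain.

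*Cfb* (NM_001142706, chromosome 17, 34857668 to 34862514) had 4367 counts in M1, 2138 in RM1, 32 in M0, 84 in RM0, 16 in M2 and 7 in RM2. The levels were 295 CPM in M1, 128 in RM1, 1.61 in M0, 4.29 in RM0, 0.789 in M2 and 0.353 in RM2. Both M1 libraries stood above the other 4, with M1 above RM1, and in the order of levels only the lowest neighbours, M2 and RM2, were within counting error of each other. Of the 100-base windows of the longest *Cfb* transcript, 81.0% are shared in GENCODE with *Gm20547*. This is a gene model that overlaps *Cfb* and its neighbour *C2*, so that reads counted for *Cfb* could stem from *Cfb* or from *Gm20547*. The listed coordinates of *Cfb* cover 78.9% of the annotated gene. *Gm20547* has no row in the tables, and *C2* had 0 or 1 count per library.

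*Cfp* (NM_008823, chromosome X, 20925535 to 20931524) had 5905 counts in M1, 4714 in RM1, 6556 in M0, 6822 in RM0, 5267 in M2 and 4254 in RM2. This gave 399 CPM in M1, 283 in RM1, 330.5 in M0, 348 in RM0, 259.7 in M2 and 214 in RM2. After TMM scaling M1 was highest and RM2 lowest, and every step in this order exceeded counting error, although the span was only 0.90 on the log2 scale and M1 lay below M0 when library totals were used. Per kilobase of its longest transcript *Cfp* had the highest mean level of the 9 genes, 187 CPM per kilobase, above 97.9% of the genes detected.

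Both anaphylatoxin receptors were lowest in the M1 libraries. *C3ar1* (NM_009779, chromosome 6, 122847140 to 122856157) had 1363 counts in M1, 2852 in RM1, 5706 in M0, 6159 in RM0, 6096 in M2 and 5946 in RM2. The levels of *C3ar1* were 92.2 CPM in M1, 171 in RM1, 288 in M0, 314 in RM0, 300.5 in M2 and 299.7 in RM2. The 4 libraries not polarized to M1 lay close together and above both M1 libraries, and M2 and RM2 did not differ beyond counting error.

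*C5ar1* (NM_007577, chromosome 7, 16246743 to 16259540) had 116 counts in M1, 234 in RM1, 1630 in M0, 1424 in RM0, 1337 in M2 and 990 in RM2. The levels of *C5ar1* were 7.85 CPM in M1, 14.0 in RM1, 82.2 in M0, 72.7 in RM0, 65.9 in M2 and 49.9 in RM2. M1 was again the lowest and RM1 the next, and all neighbours in the order differed beyond counting error. Mean levels per kilobase were 56.7 CPM for *C3ar1*, 26.1 for *Cfb*, 19.2 for *C5ar1* and 2.32 for *C3*. The full length of the longest transcript was used, although the listed coordinates of *Cfb* and *C3* cover only part of each gene.

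Levels of pairs of genes were also compared per length. *C3ar1* was at 2.07 times the level of *C5ar1* in M0 (95% interval 1.95 to 2.18), 2.69 times in M2, 2.55 times in RM0 and 3.54 times in RM2. The ratio was 6.93 in M1 (5.73 to 8.45) and 7.19 in RM1 (6.29 to 8.25). Level per length of *Cfb* was 0.32 times that of *C3* in M0 and 40.2 times in M1, with 0.817 in RM0 and 22.05 in RM1, and the parts of *C3* and *Cfb* that were counted bear on this ratio. *Cfp* per length was at 344.5 times the level of *Cfb* in M0 and at 2.27 times in M1. The ratio of *Cfp* to *C3* did not set the M1 libraries apart, at 91.3 in M1 and 81.8 in RM1, between 110.1 in M0 and 111.5 in RM0 on one side and 53.5 in M2 and 54.5 in RM2 on the other. The uncertain parts of *C3* and *Cfb* that were counted bear on the size of these *Cfp* ratios too.

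M1 polarization was compared without and with irradiation. In M1 against M0, 1 of the 5 measured members was called higher and 2 lower at 2-fold, where 22.7% of all 11778 genes were called. *Cfb* was 172-fold higher, a log2 fold change of 7.42 (95% interval 7.02 to 8.07). *C5ar1* was 10.3-fold lower, at -3.37 on the log2 scale (-3.67 to -3.12). *C3ar1* was 3.12-fold lower, at -1.64 on that scale (-1.73 to -1.56). The log2 fold change of *C3* was 0.54 (0.25 to 0.84) and that of *Cfp* was 0.27, which turned to -0.17 when library totals were used. The 7 comparisons draw on the same 6 libraries, so several share one of them. Such calls compare a pair of libraries and carry no p-value, and the intervals cover counting error only.

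In RM1 against RM0, 1 member was called higher and 1 lower, where 14.0% of 11713 genes were called. *Cfb* was 29.2-fold higher, a log2 fold change of 4.87 (4.59 to 5.24). *C5ar1* was 5.15-fold lower, at -2.36 on the log2 scale (-2.58 to -2.17). The log2 fold change of *C3ar1* was -0.88 (-0.94 to -0.81), short of 2-fold, and it passed 2-fold when library totals were used (-1.13) or when the trend with GC content was removed (-1.03). *C3* gave 0.15, within counting error and negative (-0.10) with library totals, and *Cfp* gave -0.30. The 3 called genes of the non-irradiated comparison thus had the same direction after irradiation, each with the smaller log2 fold change in RM1 against RM0. Among all genes the median absolute change on the log2 scale was 0.52 in M1 against M0 and 0.38 in RM1 against RM0.

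**Figure D2:**
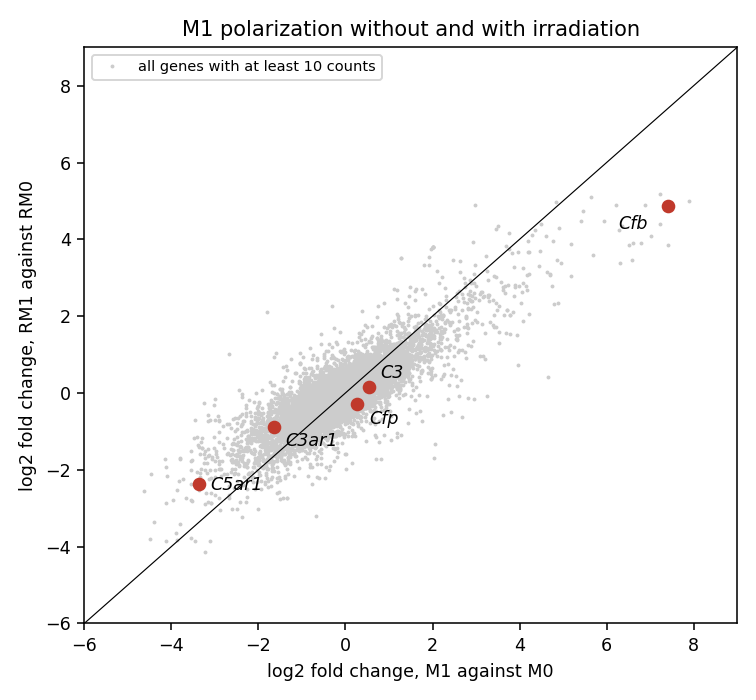
Log2 fold change in RM1 against RM0 plotted over that in M1 against M0 for 11569 genes measured in both (grey), with the 5 measured complement genes in red and the line of equal change. *Cfb* lies at 7.42 and 4.87, *C5ar1* at -3.37 and -2.36, and *C3ar1* at -1.64 and -0.88.

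The M1 effect was tested over both irradiation levels with edgeR's quasi-likelihood test, in which the irradiated and the non-irradiated pair stand in for replicates. With Benjamini-Hochberg adjustment over all genes, 3 of the 5 measured members passed 0.05, where 47.6% of 11574 genes passed, so that passing is common in this comparison. *Cfb* rose, with a log2 fold change of 6.04 and an adjusted p of 2.87e-06 in edgeR's quasi-likelihood test, and was higher in 2 of 2 pairs. *C5ar1* fell by 2.81 on the log2 scale (adjusted p = 9.82e-06) and *C3ar1* fell by 1.23 (adjusted p = 0.000464), each lower in 2 of 2 pairs. All 3 passed under each of 12 alternatives, with largest adjusted p-values of 0.000277 for *Cfb*, 0.000328 for *C5ar1* and 0.00759 for *C3ar1*. *C3* had a log2 fold change of 0.34 (adjusted p = 0.127, or 0.0339 without RM1) and *Cfp* one of -0.02 (adjusted p = 0.941). With library totals *Cfp* gave -0.36 (adjusted p = 0.0398), a setting that also moved the calls over all genes from 2692 higher and 2817 lower to 1091 higher and 4750 lower.

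Levels of other markers moved with the M1 libraries too. The summed level of 8 macrophage markers was lowest in M1, but most of that sum was *Lyz2*, with 13480 CPM in M1 and 23670 CPM in M0. Other macrophage markers went either way, with *Adgre1* at 340 CPM in M1 and 81.8 in M0, *Fcgr1* at 352 and 49.3, and *Csf1r* at 328 and 668.5. The neutrophil list, of which 4 of 5 genes were found, summed to 140.5 CPM in M2 and 3074 CPM in RM1, nearly all of it from *S100a8*, while *Mpo* and *Elane* had 3 counts or fewer in every library. The 5 fibroblast markers summed to 6.45 CPM in M0 and 45.8 CPM in RM1, mostly from *Dcn*, with *Col3a1* at 0 in all libraries, and 3 dendritic cell markers summed to 0.9 to 1.77 CPM. Their part in the changes of *Cfb*, *C3ar1* and *C5ar1* was not tested.

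M2 polarization was compared in the same way. In M2 against M0 none of the 5 measured members was called at 2-fold, where 1.44% of 11762 genes were called. *Cfb* had a log2 fold change of -0.94 (-2.00 to -0.12), resting on 16 against 32 counts. *C3* had one of 0.69 (0.43 to 0.96), *Cfp* of -0.35, *C5ar1* of -0.32 and *C3ar1* of 0.06.

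In RM2 against RM0, 1 member was called lower and none higher, where 2.61% of 11748 genes were called. The called gene was *Cfb*, with 7 counts in RM2 against 84 in RM0, a log2 fold change of -3.25 (-4.96 to -2.5). The log2 fold changes of the others were -0.70 for *Cfp*, -0.54 for *C5ar1*, 0.33 for *C3* and -0.07 for *C3ar1*. The signs were those of M2 against M0 for *Cfb*, *Cfp*, *C5ar1* and *C3*.

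In edgeR's quasi-likelihood test of the M2 effect over both irradiation levels, 0 of 5 members passed after Benjamini-Hochberg adjustment, where 0.190% of 11574 genes passed. At an unadjusted p under 0.05 there were 3 members, and 1173 of all 11574 genes, and DESeq2 gave 0 members after adjustment and 41 of all genes. These 3 were *Cfb* (log2 fold change -2.42, edgeR adjusted p = 0.341), *Cfp* (-0.53, adjusted p = 0.343) and *C3* (0.51, adjusted p = 0.431), all with the same sign in 2 of 2 pairs. *C5ar1* had a log2 fold change of -0.42 (adjusted p = 0.508) and *C3ar1* one of 0.0032 (adjusted p = 0.997). The outcome depended on single libraries. *Cfb* passed in edgeR's test without M0 (-3.61, adjusted p = 4.19e-10), M1 (-2.32, 4.45e-12), M2 (-2.90, 6.03e-06), RM1 (-2.32, 8.06e-12) or RM2 (-2.10, 0.00154), but not without RM0 (-0.998 and 0.9998). *Cfp* passed without M0 (-0.75, adjusted p = 0.0313), M1 (-0.52, 4.36e-06) or RM1 (-0.52, 3.97e-06), while *C3* passed without M1 (0.52, 0.00532) or RM1 (0.52, 0.00542). *C5ar1* passed without M1 (-0.43, 0.00105) or RM1 (-0.43, 0.00109). Over all genes the calls went from 22 to 1398 when either M1 or RM1 was left out.

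The response to irradiation was compared within each state. In RM0 against M0, 1 of 5 members was called higher, where 1.54% of 11688 genes were called. It was *Cfb*, with 84 against 32 counts, 2.55-fold higher at a log2 fold change of 1.35 (0.81 to 2.05). The log2 fold changes of the other 4 lay between -0.18 for *C5ar1* and 0.13 for *C3ar1*.

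In RM1 against M1, 1 member was called lower, where 5.34% of 11443 genes were called. It was again *Cfb*, with 2138 against 4367 counts, 2.30-fold lower at a log2 fold change of -1.20 (-1.28 to -1.13). Both receptors were higher in RM1 without reaching 2-fold, by 0.89 on the log2 scale for *C3ar1* (0.80 to 0.99) and by 0.83 for *C5ar1* (0.51 to 1.17). With library totals *C3ar1* gave 1.03 and would be called. *Cfp* had a log2 fold change of -0.50 and *C3* one of -0.34.

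In RM2 against M2 none of the 5 was called, where 1.97% of 11801 genes were called. *Cfb* gave a log2 fold change of -0.96 from 7 against 16 counts, with an interval of -2.68 to 0.20 that includes 0. *C5ar1* gave -0.40 and *C3ar1* -0.0040.

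**Figure D3:**
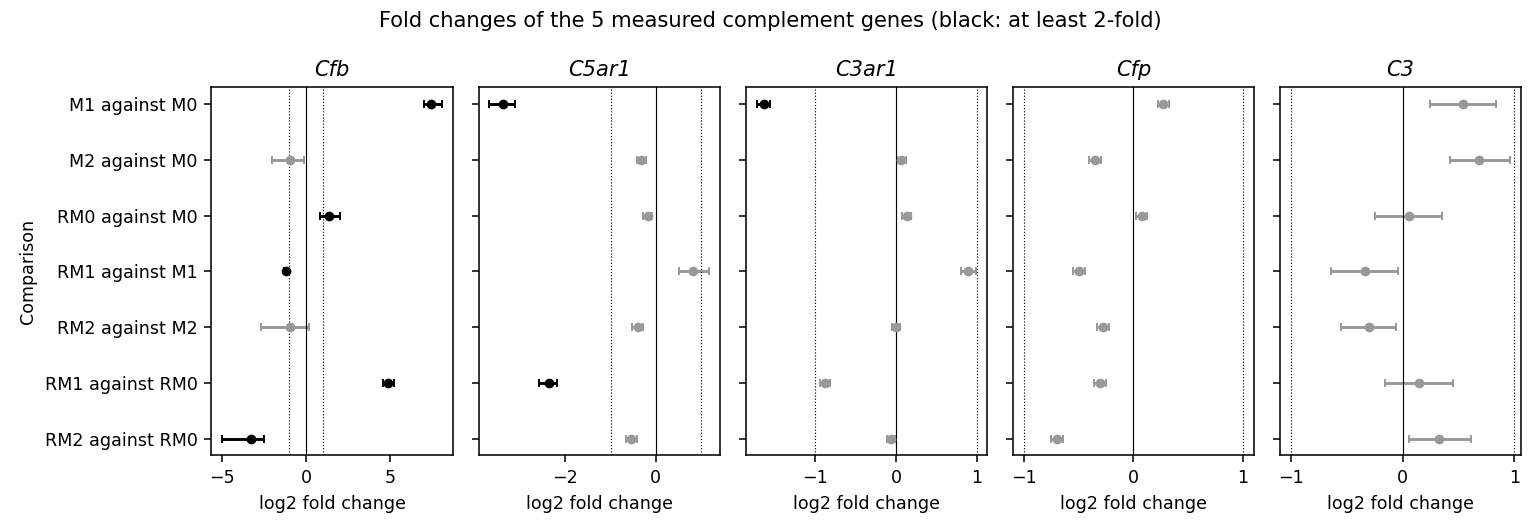
Log2 fold change of the 5 measured complement genes in the 7 comparisons between pairs of libraries, with 95% intervals for counting error, dotted lines at 2-fold, and a separate axis range for each gene. Black points are called at 2-fold, and *Cfb* is called in 5 comparisons, *C5ar1* in 2 and *C3ar1* in 1.

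No member passed the test of an irradiation effect shared by the 3 states. In edgeR's quasi-likelihood test with Benjamini-Hochberg adjustment 0 of 5 passed, where 0.475% of 11574 genes passed, with 0 members at an unadjusted p under 0.05, where 1707 genes were, and 0 with DESeq2, which called 114 genes. The log2 fold changes were 0.33 for *C3ar1* (adjusted p = 0.348), -0.23 for *Cfp* (0.400), -0.54 for *Cfb* (0.510), -0.20 for *C3* (0.524) and -0.0076 for *C5ar1* (0.987). For *Cfb* this single value stands for a higher level in 1 pair and lower levels in the other 2, and it turned with the library left out. Without M1 it was 0.88 (adjusted p = 0.0338) and without RM1 0.88 (0.0349), while without M0 it was -1.20 (1.07e-05) and without RM0 -1.20 (2.68e-05).

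Across the 6 libraries the log2 levels of *C3ar1* and *C5ar1* had a Pearson's r of 0.96. *Cfb* had an r of -0.91 with each of them and of 0.63 with *Cfp*, while *C3* had r between -0.32 and 0.03 with the other 4. These values describe 6 libraries of which 2 are M1 and share 1 scaling, and carry no test. Profiles most like those of a member were sought among 10189 genes for the 2 members that varied at least 4-fold, by the root-mean-square difference of log2 levels centred on their mean over the 6 libraries. For *Cfb* the closest were *Slfn1* (0.51), *Gbp5* (0.87) and *U90926* (0.90). *Slfn1*, a Schlafen family gene, had 3333 counts in M1, 3502 in RM1, 58 in M0, 136 in RM0, 31 in M2 and 20 in RM2. For *C5ar1* the closest were *4930432K21Rik* (0.20), *Nlrp10* (0.22) and *Gemin4* (0.24), the last with 36 counts in M1, 89 in RM1, 459 in M0, 377 in RM0, 498 in M2 and 415 in RM2.

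A further 42 complement genes were examined as a list. Of these 23 had 3 counts or fewer in every library and 13 were abundant enough for the test. Among 16 activation genes, which include the C1r and C1s proteases, C2, C4 and the lectins, 10 had 3 counts or fewer and 3 were tested (*C1ra*, *Masp2* and *Fcna*). Of the 7 terminal pathway genes, which form the membrane attack complex, 6 had 3 counts or fewer and the remaining *C9* did not exceed 5 counts. Of 10 regulators 4 were tested, and of 9 receptors 6 were tested. The integrin chains of complement receptor 3 were abundant in all libraries, with 24525 to 31782 counts for *Itgam* and 6907 to 10331 for *Itgb2*. The other C5a receptor, *C5ar2*, had 5 to 20 counts.

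In edgeR's quasi-likelihood test of the M1 effect 1 of the 13 rose and 2 fell, fewer in proportion than the 47.6% of all genes that passed, with a median log2 fold change of -0.04 beside -0.02 over all genes. *Calr*, which encodes calreticulin, an endoplasmic reticulum chaperone that can bind C1q, had 43781 counts in M1, 30535 in RM1, 19066 in M0, 17840 in RM0, 18445 in M2 and 16281 in RM2. M1 and RM1 were the highest libraries, and it rose with a log2 fold change of 1.32 (edgeR adjusted p = 0.000193). Both genes that fell were named because they passed. *C1qbp* (-0.82, edgeR adjusted p = 0.000501), a mainly mitochondrial protein first known for binding C1q, and *Cr1l* (-0.46, adjusted p = 0.00943), a membrane regulator of C3 activation, fell. In the M2 test 0 of the 13 passed, where only 0.190% of 11574 genes passed. At an unadjusted p under 0.05 there were 0 of the 13 and 1173 of all genes. DESeq2 gave 0 of the 13 and 41 of all genes after adjustment.

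In the irradiation test 1 of the 13 rose and none fell, where 0.475% of 11574 genes passed. The median log2 fold change was 0.00034 beside -0.01 over all genes. At an unadjusted p under 0.05 there were 3 of the 13, where 1707 of all genes were. Of these, *C1qbp* (-0.33, edgeR adjusted p = 0.197) and *C1ra* (-0.53, adjusted p = 0.260) were lower and did not pass. The gene that passed was *Cd93*, a membrane protein once described as a C1q receptor. It had 121 counts in M1, 353 in RM1, 176 in M0, 324 in RM0, 146 in M2 and 274 in RM2. All 3 irradiated libraries were above all 3 non-irradiated ones, and the log2 fold change was 0.89 in RM0 against M0, 1.36 in RM1 against M1 and 0.93 in RM2 against M2. In edgeR's quasi-likelihood test *Cd93* rose by 1.07 on the log2 scale with an adjusted p of 0.0129, and it ranked 13 by p among the 11574 genes. With DESeq2 it rose by 1.06 (DESeq2 adjusted p = 0.000115). The other alternatives were not examined for *Cd93*, and with library totals only 3 of all genes passed.

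At 2-fold, 1 of 13 other complement genes measured was higher and 0 lower in M1 against M0, where 22.7% of all genes were called. In M2 against M0 2 of 15 were higher and 0 lower (1.44% of all genes called). None was called of 13 in RM0 against M0 (1.54%) or of 15 in RM2 against M2 (1.97%), and 1 of 11 was higher in RM1 against M1 (5.34%). In RM1 against RM0 1 of 13 was higher and 1 lower (14.0%), and in RM2 against RM0 1 of 15 was higher (2.61%). Apart from *Calr* and *Cd93* these calls rested on small counts, and the genes are named here after their values were seen. *Itgax*, an integrin chain of complement receptor 4, had 22 counts in M2 against 9 in M0 and 25 in RM2 against 6 in RM0. *C1rb* had 16 counts in M2 against 6 in M0, where the log2 interval for counting error, -0.046 to 3.02, includes 0, and *Masp2* had 2 counts in RM1 against 12 in RM0.

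**Figure D4:**
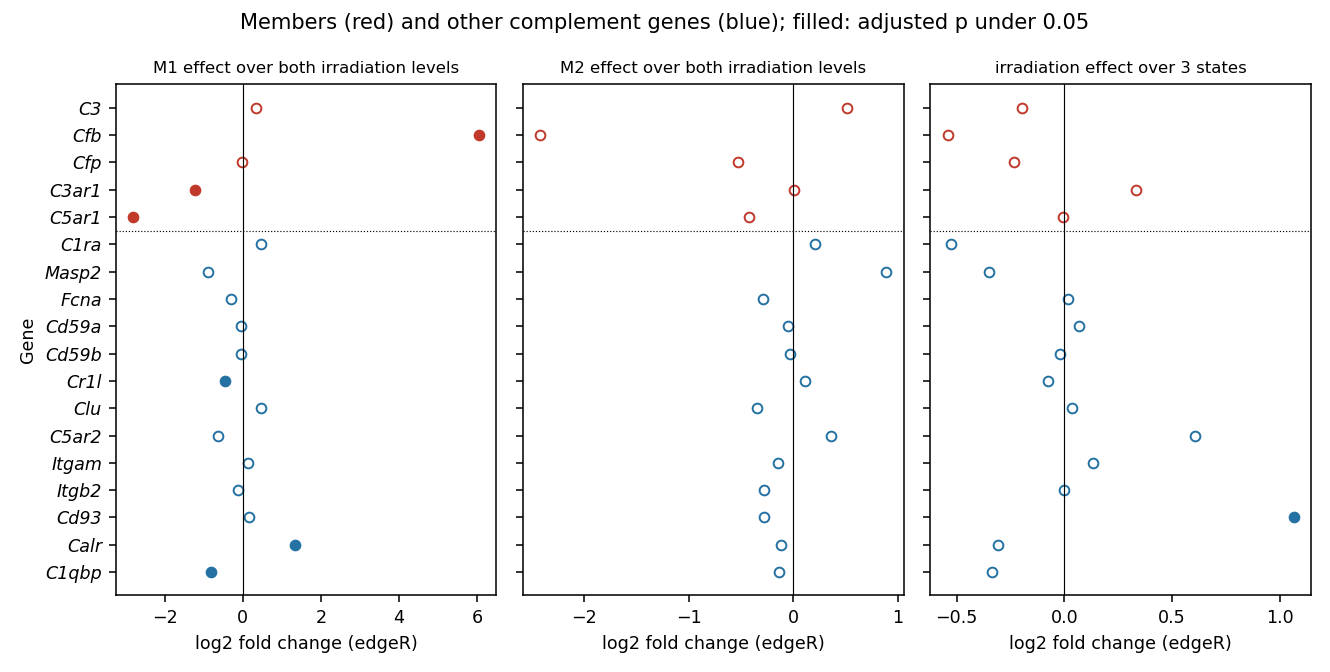
Log2 fold change in edgeR's quasi-likelihood test for the 5 measured members (red, above the dotted line) and 13 other complement genes (blue) for the M1, M2 and irradiation effects, with a separate axis range for each. Filled points passed an adjusted p of 0.05, which 3 members and 3 other genes did for M1, none for M2, and *Cd93* alone for irradiation.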

How the data were processed

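The authors made 1 library per condition, and their processing notes list Trimmomatic (0.36), HISAT2 (2.2.1), HTSeq (0.11.3) and the build mm10. They deposited raw read counts per RefSeq gene, without normalization, and 8137 of 24062 genes were at 0 throughout. Here counts were scaled by TMM in edgeR (4.0.16, R 4.3.3), and pairs of libraries were compared as log2 fold changes with a prior count of 2, called at 2-fold with at least 10 counts in 1 library. The quasi-likelihood test had terms for polarization and irradiation, was run on genes reaching 10 counts in 3 or more libraries, left 2 residual degrees of freedom and assumes the same effect in each pair. Intervals at 95% are exact Clopper-Pearson for ratios and Poisson for levels, and cover counting error only. They use raw counts without the prior count, which draws log2 fold changes from small counts toward 0. For *Cfb* in RM2 against RM0 the value was -3.25, and it was -3.55 with a prior count of 0.25. DESeq2 (1.42.0), other scalings, filters, a prior count of 0.25, a 4-fold threshold, GC trend removal and omitted libraries or terms were tried. Lengths came from GENCODE M21. The members and the gene lists were chosen with earlier results of these data known. Of the other complement genes, the rule named those called in 1 comparison or more with a mean of at least 50 counts, *Cd93* and *Calr*, and the rest are named after their values were seen. The 3 genes most like a member were named by the same rule. Exosome data were not used here. Python (3.11.15) served for tables and plots. Of the wider complement list 1 gene of the wider complement list is not reported here.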

Additional observations from a re-analysis of the deposited data

Results flagged for a closer look

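*Cfb* moved in opposite directions with irradiation in 2 states. Its log2 fold change was 1.352 in RM0 against M0 (84 against 32 counts) and -1.203 in RM1 against M1 (2138 against 4367 counts). Each state has 1 library without and 1 with irradiation, so the difference between the states was not tested.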

How the results depend on the processing

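The M1 effect on *Cfb*, *C3ar1* and *C5ar1* kept its direction and passed under each of 12 alternatives. Counts over all genes were less stable. For M2, 22 genes passed, and 41 with DESeq2, 3 with library totals, 45 with no filter beyond 1 count, 0 without an irradiation term (621 at an unadjusted p under 0.05) and 18 to 1398 with 1 library left out. For irradiation, 55 passed, and 114 with DESeq2, 3 with library totals, 134 with no filter, 0 without a polarization term (138 unadjusted) and 77 to 698 with 1 library left out. The members called at 2-fold became 1 in M2 against M0 with a prior count of 0.25, 0 in RM0 against M0 at 4-fold, 2 in RM1 against M1 with library totals and 0 at 4-fold, and 1 in RM2 against M2 with library totals or a prior count of 0.25. The cause was not tested.

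Signs turned mostly near 0. The M1 log2 fold change of *Cfp* was 0.0045 with DESeq2 or its size factors, 0.0070 without an irradiation term and -0.25 to 0.22 with 1 library left out, and that of *C3* was -0.0021 with library totals. The M2 value of *C3ar1* was -0.0041 with DESeq2, -0.0042 with its size factors, -0.0029 with no filter, -0.0043 without an irradiation term and -0.27 to 0.24 with 1 library left out. The irradiation value of *C5ar1* was 0.035 with DESeq2, 0.0071 with library totals, 0.0030 with no filter and -0.29 to 0.26 with 1 library left out, and that of *Cfb* was -1.20 to 0.88 in that case. Where a fit left 1 library in a group, it was assumed to vary like the others. At this depth differences at 3 counts or fewer were not detectable, and no replicate of any condition exists.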
